A study of Mus musculus with 12 samples.

Results

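The genes that drive cells through the division cycle and copy their DNA were examined in mouse cortex after deletion of a DNA methyltransferase. They are 41 genes listed by name, with no filter on their level, of 23354 gene symbols in the deposited expression table, and all 41 were found there. RNA was taken from whole cortices of C57BL/6 mice at postnatal day 16 and sequenced from its polyadenylated fraction, with 3 biological replicates in each of 4 groups. The Dnmt1 CKO mice were Olig1cre/+;Dnmt1flox/flox and their littermate controls Olig1+/+;Dnmt1flox/flox. The Dnmt3a CKO mice were Olig1cre/+;Dnmt3aflox/flox and their littermate controls Olig1+/+;Dnmt3aflox/flox. The controls thus carry the floxed alleles but no cre, and only the CKO mice carry the cre insertion in 1 copy of Olig1. Within a line, loss of the enzyme and the cre insertion in Olig1 cannot be told apart. Cre made from the Olig1 locus acts in the oligodendrocyte lineage, whereas the RNA came from all cells of the cortex.

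A dividing cell passes G1, in which D-type and E-type cyclins with CDK4 and CDK2 release E2F1 from the retinoblastoma protein. It then passes S phase, in which the MCM ring, loaded on replication origins by CDC6 and CDT1, unwinds DNA for polymerases that PCNA clamps to the fork. In G2 and mitosis, cyclin A2 and the B-type cyclins with CDK1, the Aurora and Polo-like kinases, kinesins and the spindle checkpoint separate the chromosomes. Neurons of the postnatal cortex have left the cycle, and oligodendrocyte progenitors are its main dividing population, beside some astrocytes, microglia and vascular cells. DNMT1 copies methylation onto newly made DNA behind the replication fork, and DNMT3A places methylation without a methylated template. The question put to these genes was whether their transcripts differed between cortices with and without either enzyme in the oligodendrocyte lineage. In whole tissue, fewer dividing cells and less RNA per dividing cell cannot be told apart.

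Some properties of the libraries touch the values that follow. The targeted gene Dnmt1 measured 10.2 ± 0.435 FPKM in Dnmt1 Control and 8.49 ± 1.06 in Dnmt1 CKO (SD, n = 3), where FPKM is fragments per kilobase of transcript, scaled by the number of mapped fragments in the library. Dnmt3a measured 31.1 and 28.7 FPKM in Dnmt3a Control replicates 1 and 3 and 13.6 to 15.4 in Dnmt3a CKO, but 16.9 FPKM in the library labelled Dnmt3a Control replicate 2, close to the CKO libraries. Olig1, the gene that carries cre in the CKO mice, was at 49.8 FPKM in that library, beside 48.4 and 44.1 in the other Dnmt3a controls and 30.6 to 38.8 FPKM in Dnmt3a CKO, so that by Olig1 it lay with the controls. Xist, the transcript that silences an X chromosome in females, was at 46.2 to 49.4 FPKM in replicate 3 of Dnmt1 Control, Dnmt3a Control and Dnmt3a CKO, at 1.69 to 1.85 FPKM in Dnmt1 CKO and at 0.0853 FPKM or less in the other 6 libraries, and the Y-linked Kdm5d was near 0 in those 3 libraries. The Dnmt1 CKO group thus holds no female library and the other groups 1 each. The summed level of 8 choroid plexus markers ran from 3.49 to 423 FPKM between libraries. The members' medians and some single genes are also given without Dnmt1 Control replicate 3 or the library labelled Dnmt3a Control replicate 2. Most other values are given with all libraries only.

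In all groups the genes of G1 and S phase were, as a set, more abundant than those of mitosis. The 20 genes that act in G1 and S phase will be called G1 and S members, and the 21 that act from S phase to mitosis S to M members: MKI67, topoisomerase IIα, cyclins A2, B1 and B2, CDK1, the mitotic kinases and their partners, the checkpoint and APC/C genes and the spindle and kinetochore genes. Summed over each set, the level was 96.2 to 108 FPKM per library for G1 and S members and 11.6 to 15.5 FPKM for S to M members. The 6 most abundant genes by mean FPKM over the 12 libraries were Pcna at 25.8, Cdk4 at 20.9, Ccnd2 at 14.0, Ccnd1 at 8.58, Ccne1 at 6.10 and E2f1 at 4.32 FPKM, each a G1 and S member. The most abundant S to M members were Ccna2, at rank 12 of 41 with 1.81 FPKM, and Ube2c with 1.15 FPKM. Mki67, which encodes the Ki-67 antigen used to count dividing cells, stood at 0.569 FPKM and Top2a, topoisomerase IIα, at 0.886 FPKM. At the foot of the order stood Bub1, a kinase of the spindle checkpoint, at 0.146 FPKM and Cdc6, the origin licensing factor, at 0.117 FPKM.

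**Figure D1:**
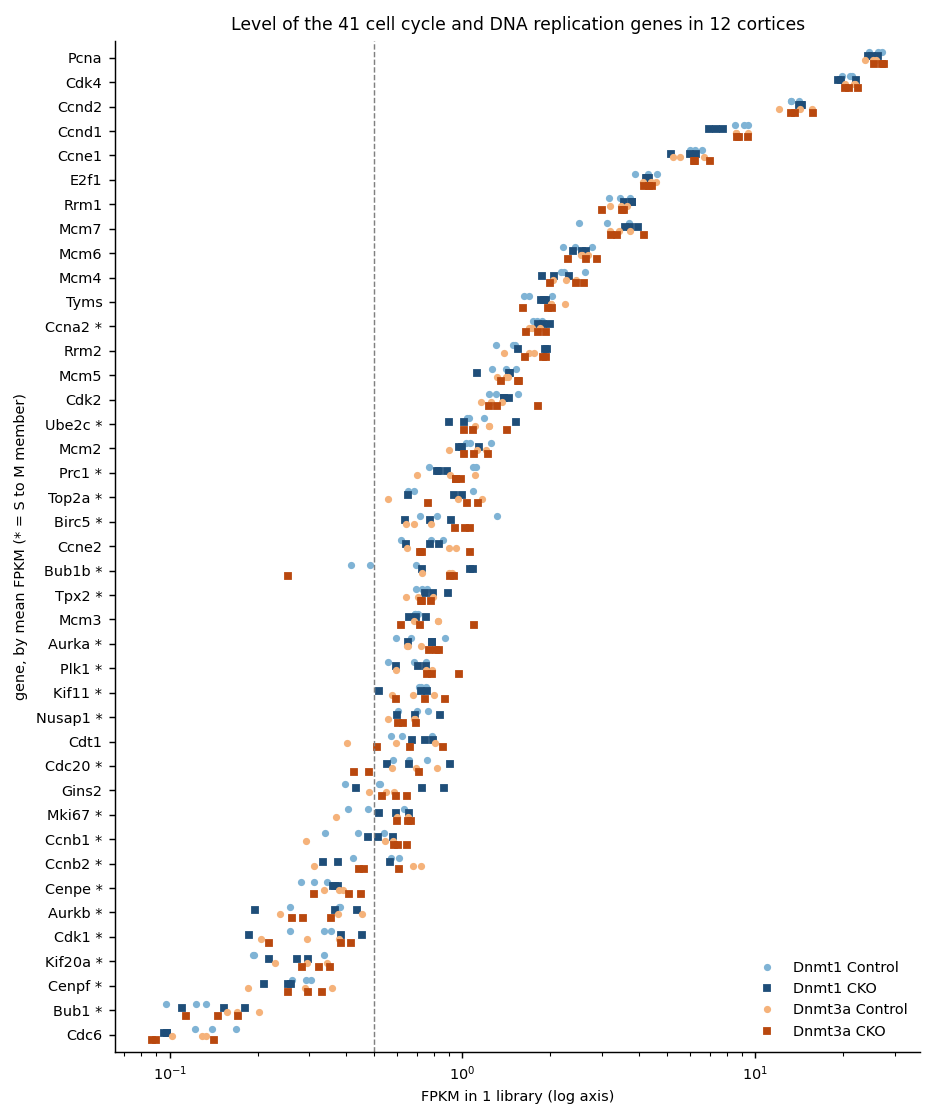
FPKM of each of the 41 genes in each of the 12 libraries on a log axis, ordered by mean. Circles are controls, squares CKO, blue the Dnmt1 line and orange the Dnmt3a line, a star marks an S to M member and the dashed line is the minimum mean of 0.5 FPKM for a test. The levels run from Pcna at 25.8 to Cdc6 at 0.117 FPKM, and the dark blue squares of Ccnd1 stand to the left of its other points.

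Neighbours in the order mostly could not be ranked within the spread. Pcna ran from 23.7 to 27.6 FPKM over the 12 libraries and Cdk4 from 19.2 to 22.5, so these did not overlap. Ccnd2 ran from 12.1 to 15.8 FPKM and lay below all values of Cdk4 and above all those of Ccnd1. Rrm1 and Mcm7, by contrast, had means of 3.50 and 3.48 FPKM and overlapping ranges. Spread rose as the level fell. The coefficient of variation over the 12 libraries was 4.74% for Pcna and 4.68% for E2f1, 18.0% for Mki67, 24.1% for Top2a and 34.5% for Bub1b, whose highest library was 4.29 times its lowest.

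The 2 sets also differ in the letters of their promoters. Promoter sequences from RefSeq on GRCm38.p6, from 250 bases before to 50 after the transcription start, were matched to 32 of the 41 genes, 34 promoters in all. They were searched on both strands for 3 kinds of letters known from cell cycle genes, with overlaps allowed: E2F sites, written here as TTTCCCGC, TTTCGCGC, TTTGCCGC or TTTGGCGC, the cell cycle homology region (CHR) TTTGAA, which the DREAM and MuvB complexes bind, and the CCAAT box of NF-Y. The 150 bases before the start of 4 S to M members and of 2 subunits of the replicative helicase show the contrast. Capitals mark matches on either strand.
Mki67: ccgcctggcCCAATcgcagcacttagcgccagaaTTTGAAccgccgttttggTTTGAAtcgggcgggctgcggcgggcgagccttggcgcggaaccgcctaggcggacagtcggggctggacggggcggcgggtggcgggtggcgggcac
Top2a: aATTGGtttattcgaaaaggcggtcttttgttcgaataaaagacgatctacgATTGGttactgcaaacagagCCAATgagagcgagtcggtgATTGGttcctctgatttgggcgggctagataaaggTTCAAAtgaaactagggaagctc
Ube2c: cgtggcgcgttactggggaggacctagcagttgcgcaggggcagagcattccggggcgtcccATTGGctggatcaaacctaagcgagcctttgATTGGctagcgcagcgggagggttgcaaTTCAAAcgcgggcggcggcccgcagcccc
Cdc20: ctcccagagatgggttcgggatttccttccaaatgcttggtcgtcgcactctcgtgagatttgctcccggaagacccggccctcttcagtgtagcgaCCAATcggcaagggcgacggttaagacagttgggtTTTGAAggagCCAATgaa
Mcm5: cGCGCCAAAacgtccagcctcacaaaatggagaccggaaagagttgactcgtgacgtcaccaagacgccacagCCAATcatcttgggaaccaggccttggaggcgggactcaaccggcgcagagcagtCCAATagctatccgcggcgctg
Mcm6: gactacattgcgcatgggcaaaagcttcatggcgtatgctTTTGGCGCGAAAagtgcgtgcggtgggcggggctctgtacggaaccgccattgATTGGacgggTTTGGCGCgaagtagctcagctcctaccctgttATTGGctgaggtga
The Mki67 stretch is chr7:135716380-135716529 (minus strand), Top2a chr11:99024190-99024339 (minus), Ube2c chr2:164769779-164769928 (plus), Cdc20 chr4:118437344-118437493 (minus), Mcm5 chr8:75109359-75109508 (plus) and Mcm6 chr1:128359706-128359855 (minus). Each of the 4 S to M stretches holds a CHR and at least 1 CCAAT box and no E2F letters, and the 2 Mcm stretches hold E2F letters and CCAAT boxes and no CHR.

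Over all matched promoters, the CHR was found in 13 of 18 promoters of S to M members (72.2%) and 1 of 16 of G1 and S members (6.25%), against 17.9% of all 32851 promoters. E2F letters were found in 7 of 16 promoters of G1 and S members (43.8%) and 1 of 18 of S to M members (5.56%), that of Cdk1, against 2.26% of all promoters. CCAAT was found in 88.9% and 62.5% of S to M and G1 and S promoters, against 37.4% of all. The members' promoters are rich in CpG, the dinucleotide that DNMT1 and DNMT3A methylate, with a median of 25 in the 300 bases against 7 over all promoters. Among the 11378 promoters with at least 15 CpG the shares were 8.16% for the CHR, 4.97% for E2F letters and 34.9% for CCAAT. These matches describe letters, not binding, and methylation was not measured in these samples.

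**Figure D2:**
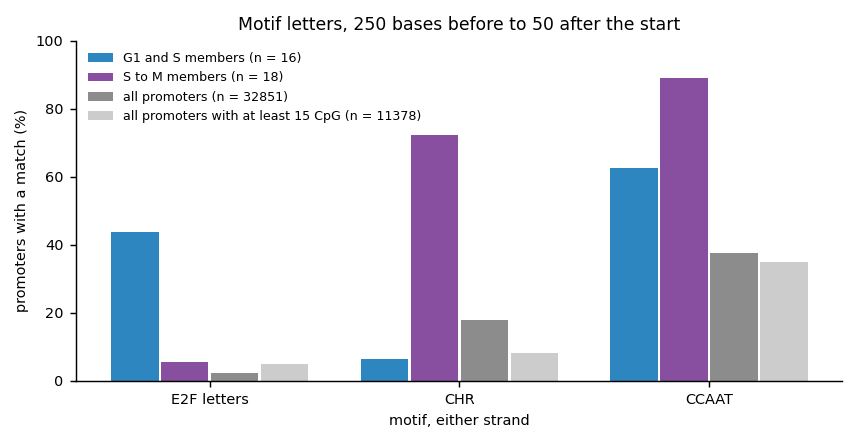
Share of promoters, in percent, with at least 1 match to E2F letters, the CHR or CCAAT on either strand, for G1 and S members, S to M members, all RefSeq promoters and those with at least 15 CpG. The CHR bar of S to M members stands at 72.2% and the E2F bar of G1 and S members at 43.8%.

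The first comparison sets the Dnmt1 CKO cortices against their littermate controls. A single member was called lower in CKO: Ccnd1, cyclin D1, the partner of CDK4 and CDK6 that starts G1. None was called higher. Mki67, Top2a, Pcna and the MCM genes did not pass the test. Of the 34 members with a mean of at least 0.5 FPKM, 1 (2.94%) was called at 10% FDR by limma with Benjamini-Hochberg adjustment, a share near the 3.15% of all 14075 genes tested, of which 2.3% were lower and 0.845% higher. The median log2 fold change of the 34 was 0.04, with 22 higher and 12 lower, beside −0.02 over all genes tested. CKO and control values did not overlap for 4 of the 34 (11.8%), against 20.8% of all genes. An unadjusted p under 0.05 was reached by 3 of the 34 (8.82%), against 15% of all genes. Without Dnmt1 Control replicate 3, the library of that line with high Xist, the median was 0.01, with 18 higher and 16 lower. The balance also turned on 1 library: without Dnmt1 CKO replicate 2 the median was −0.02, with 15 higher and 19 lower.

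Ccnd1 measured 9.44, 8.56 and 9.16 FPKM in the Dnmt1 Control libraries and 6.98, 7.79 and 7.36 FPKM in the Dnmt1 CKO libraries. In the Dnmt3a line it measured 8.58, 8.62 and 9.45 FPKM in control and 8.85, 9.49 and 8.69 FPKM in CKO. The 3 Dnmt1 CKO values were thus the lowest of the 12, with no overlap with any other library. The group means were 9.05 ± 0.445 and 7.38 ± 0.406 FPKM (SD, n = 3). The change was −0.29 on the log2(FPKM + 0.1) scale (SE 0.0595, 95% interval −0.44 to −0.15), with an adjusted p of 0.095. The call is close to the threshold: leaving out any 1 of the 6 libraries gave log2 fold changes of −0.33 to −0.25 with adjusted p between 0.13 and 0.276, and none of these passed. Without Dnmt1 Control replicate 3 the log2 fold change of Ccnd1 was −0.28. Ccnd1 lies at chr7:144929931-144939925 on the minus strand of GRCm38, and 1100 of its 4709 exon bases (23.4%) overlap exons of LTO1, listed as Oraov1, on the other strand. Oraov1 had a log2 fold change of −0.07 (adjusted p = 0.74), and whether the counting used strand is not stated.

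Most markers of the oligodendrocyte lineage were also lower in Dnmt1 CKO. The summed level of 10 oligodendrocyte progenitor markers was 135 to 152 FPKM in Dnmt1 Control and 112 to 122 FPKM in Dnmt1 CKO. Gpr17 alone had group means of 37.2 and 25.2 FPKM. Of the 10, 9 were lower and 1 higher, and 4 (40%) were called, all lower, against 3.15% of all genes. The called log2 fold changes were −0.30 for Pdgfra, −0.56 for Gpr17, −0.54 for Olig2 and −0.31 for Sox6. The list did not move as one: Cspg4 was at −0.0006, Cacng4 at −0.06 and Matn4 at 0.12. It is also not confined to progenitors, since the study stained oligodendrocytes by Olig2. The summed level of 10 myelin genes was 1948 to 2267 FPKM in control and 575 to 670 FPKM in CKO, with all 10 called lower. No marker of these lists was at 0 in any group, and their part in the lower Ccnd1 level was not tested. The summed level of 8 endothelial markers was also lower, at 77.6 to 85.1 FPKM in control and 71.2 to 76.3 FPKM in CKO. Their median log2 fold change was −0.18, with 7 of 8 lower. None was called, and 3 (37.5%) had an unadjusted limma p under 0.05, against 15% of all genes. Their part was not tested either. Of the 34 tested members 12 were lower in Dnmt1 CKO, Ccnd1 among them, and 22 higher. The summed level of the 21 S to M members was 14.9, 12.4 and 13.0 FPKM in control and 14.4, 15.1 and 12.6 FPKM in CKO, and the groups overlapped.

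The other genes of G1 did not pass the test. Ccnd2, cyclin D2, measured 14.1, 13.3 and 13.3 FPKM in Dnmt1 Control and 14.2, 14.4 and 14.4 FPKM in Dnmt1 CKO, a log2 fold change of 0.08 (95% interval −0.00 to 0.17, adjusted p = 0.35). The groups did not overlap. Cdk4, the kinase of the D-type cyclins, measured 21.5, 21.1 and 19.9 FPKM in control and 19.7, 22.1 and 19.2 FPKM in CKO, with a log2 fold change of −0.04 (95% interval −0.19 to 0.12). E2f1, the transcription factor released at the end of G1, measured 4.63, 4.32 and 3.89 FPKM in control and 4.28, 4.36 and 4.25 FPKM in CKO, a log2 fold change of 0.01 (95% interval −0.17 to 0.19). For Ccne1, cyclin E1, the log2 fold change was −0.11 (95% interval −0.32 to 0.10).

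The largest differences in the Dnmt1 line were in the upward direction and did not pass. Bub1b, which encodes the checkpoint protein BUBR1, measured 0.692, 0.482 and 0.416 FPKM in Dnmt1 Control and 1.06, 0.726 and 1.08 FPKM in Dnmt1 CKO. All CKO values lay above all control values, but the Dnmt3a Control libraries, at 0.902, 0.919 and 0.725 FPKM, lay above the Dnmt1 Control values and overlapped the Dnmt1 CKO values. The log2 fold change was 0.75 (SE 0.211, 95% interval 0.23 to 1.27, adjusted p = 0.20). Rrm2, the regulated subunit of ribonucleotide reductase, which makes deoxynucleotides in S phase, measured 1.49, 1.52 and 1.30 FPKM in control and 1.91, 1.94 and 1.55 FPKM in CKO, again without overlap. Its log2 fold change was 0.30 (95% interval 0.03 to 0.58, adjusted p = 0.29). Its partner Rrm1 had a log2 fold change of 0.11 (95% interval −0.08 to 0.30).

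**Figure D3:**
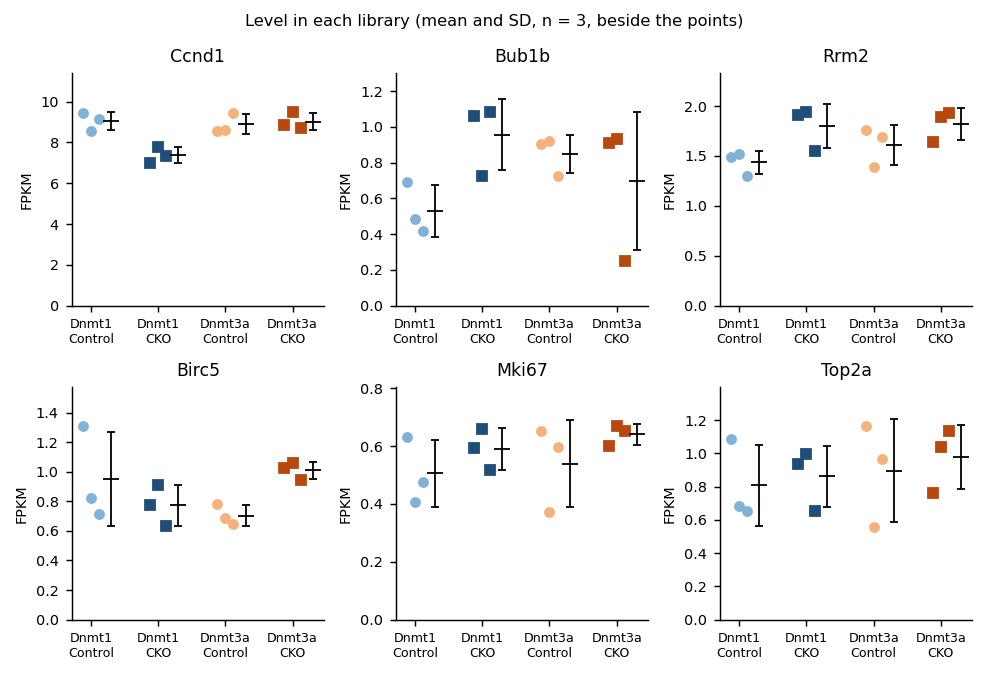
FPKM of Ccnd1, Bub1b, Rrm2, Birc5, Mki67 and Top2a in each library by group, with the mean and SD of 3 libraries beside the points and axes from 0. Ccnd1 is lowest in the 3 Dnmt1 CKO libraries, from 6.98 to 7.79 FPKM, whereas Mki67 and Top2a overlap between the groups of each line, with 1 Dnmt3a Control library the lowest of the 12 for both, at 0.371 and 0.558 FPKM.

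No gene of the replicative helicase passed the test in the Dnmt1 line. MCM2 to MCM7 form its ring and GINS2 belongs to the GINS complex that activates it. Mcm7 measured 3.70, 3.13 and 2.51 FPKM in Dnmt1 Control and 3.60, 3.97 and 3.73 FPKM in Dnmt1 CKO. Its log2 fold change was 0.28 (95% interval −0.07 to 0.63, adjusted p = 0.43), and 0.14 to 0.41 with each library left out in turn. Gins2 measured 0.520, 0.521 and 0.398 FPKM in control and 0.434, 0.863 and 0.727 FPKM in CKO, a log2 fold change of 0.38 (95% interval −0.19 to 0.95, adjusted p = 0.52). Of its exon bases 67.3% overlap Gse1 on the other strand, so its reads are uncertain. The other 6 helicase and licensing genes tested had log2 fold changes between −0.17 (Mcm4) and 0.15 (Cdt1). Pcna, the sliding clamp, measured 26.4, 27.2 and 24.5 FPKM in control and 24.3, 26.4 and 25.04 FPKM in CKO, with a log2 fold change of −0.04 (95% interval −0.17 to 0.08), among the narrowest intervals of the set.

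Of the 15 tested S to M members, only Bub1b (6.67%, against 20.8% of all genes) had Dnmt1 CKO and control values that did not overlap. Mki67 measured 0.632, 0.407 and 0.477 FPKM in control and 0.594, 0.659 and 0.517 FPKM in CKO, a log2 fold change of 0.20 (95% interval −0.18 to 0.58, adjusted p = 0.62). Top2a measured 1.09, 0.684 and 0.651 FPKM in control and 0.936, 0.999 and 0.652 FPKM in CKO, a log2 fold change of 0.10 (95% interval −0.47 to 0.66). The interval of Top2a thus includes changes as large as that of Ccnd1 in either direction. Prc1, which bundles microtubules at the spindle midzone, measured 1.08, 0.769 and 1.11 FPKM in control and 0.889, 0.816 and 0.830 FPKM in CKO (log2 fold change −0.19, 95% interval −0.54 to 0.16). Ube2c, the ubiquitin-conjugating enzyme of the APC/C, measured 1.18, 1.05 and 1.03 FPKM in control and 1.01, 1.53 and 0.898 FPKM in CKO (log2 fold change 0.04, 95% interval −0.43 to 0.50). Ccnb1, cyclin B1, measured 0.540, 0.340 and 0.441 FPKM in control and 0.516, 0.580 and 0.477 FPKM in CKO, and Cdc20, the activator of the APC/C, 0.578, 0.656 and 0.759 against 0.659, 0.905 and 0.555 FPKM. Their log2 fold changes were 0.22 and 0.06. The 15 tested S to M members had a median log2 fold change of 0.06, with 11 higher and 4 lower, and the 19 tested G1 and S members of 0.01. Without Dnmt1 CKO replicate 2 the S to M median was −0.02, with 6 higher and 9 lower.

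The second comparison sets the Dnmt3a CKO cortices against their littermate controls. No member was called, where 2 of 14075 genes (0.0142%) were called in all. The median log2 fold change of the 34 was 0.05, with 25 higher and 9 lower, beside 0.01 over all genes tested. That balance rests on 1 library: without the library labelled Dnmt3a Control replicate 2, the median was −0.01, with 16 higher and 18 lower. CKO and control did not overlap for 3 of the 34 (8.82%), against 12.8% of all genes, and 2 of the 34 (5.88%) had an unadjusted p under 0.05, against 7.35%. Ccnd1 had a log2 fold change of 0.02 (95% interval −0.12 to 0.16, adjusted p = 0.95), and the progenitor markers, at 127 to 135 FPKM in control and 129 to 141 FPKM in CKO, held none that was called.

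Birc5 had the largest positive difference in the Dnmt3a line. It encodes survivin, which with Aurora B and the inner centromere protein forms the chromosomal passenger complex. It measured 0.783, 0.685 and 0.643 FPKM in Dnmt3a Control and 1.02, 1.06 and 0.944 FPKM in Dnmt3a CKO, with no overlap. The log2 fold change was 0.47 (SE 0.0939, 95% interval 0.24 to 0.70, adjusted p = 0.66). In Dnmt1 CKO Birc5 measured 0.773, 0.911 and 0.636 FPKM. In Dnmt1 Control it reached 1.31, 0.821 and 0.717 FPKM, so Dnmt1 Control replicate 1 lay above the Dnmt3a CKO values. All other control libraries of both lines lay below them. Aurka, the centrosomal Aurora kinase, measured 0.645, 0.651 and 0.723 FPKM in control and 0.812, 0.771 and 0.835 FPKM in CKO (log2 fold change 0.23, adjusted p = 0.66).

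Ccnb1 measured 0.581, 0.292 and 0.542 FPKM in Dnmt3a Control and 0.646, 0.601 and 0.584 FPKM in Dnmt3a CKO. Its log2 fold change was 0.35 (95% interval −0.18 to 0.88), and the control at 0.292 FPKM is the library labelled Dnmt3a Control replicate 2. The same library was the lowest of the 12 for Mki67, at 0.371 FPKM beside 0.651 and 0.598 in the other Dnmt3a controls and 0.599, 0.670 and 0.653 FPKM in CKO. Mki67 had a log2 fold change of 0.24 (95% interval −0.21 to 0.69, adjusted p = 0.78). Top2a measured 1.17, 0.558 and 0.965 FPKM in control and 0.760, 1.04 and 1.13 FPKM in CKO, a log2 fold change of 0.15 (95% interval −0.52 to 0.82). Cdc20 was lower in mean, at 0.822, 0.576 and 0.692 FPKM in control and 0.481, 0.709 and 0.426 FPKM in CKO (log2 fold change −0.33, 95% interval −0.81 to 0.15, adjusted p = 0.73). Without the library labelled Dnmt3a Control replicate 2 the log2 fold changes were 0.10 for Ccnb1, 0.03 for Mki67, −0.12 for Top2a and −0.44 for Cdc20, and 0.45 for Birc5.

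Bub1b again varied most. In Dnmt3a CKO it measured 0.908, 0.933 and 0.253 FPKM, and the last is the lowest of the 12 libraries. The log2 fold change of −0.40 (95% interval −1.45 to 0.65) became 0.11 without that library, so its direction is that of 1 sample. Other members overlapped between Dnmt3a Control and CKO. Rrm2 measured 1.76, 1.39 and 1.69 FPKM in control and 1.64, 1.89 and 1.93 FPKM in CKO, Mcm7 3.43, 3.20 and 3.74 against 3.38, 4.18 and 3.21 FPKM, and Gins2 0.585, 0.548 and 0.481 against 0.647, 0.531 and 0.593 FPKM. Prc1 measured 1.10, 0.699 and 0.906 FPKM in control and 0.948, 0.987 and 0.952 FPKM in CKO, and Ube2c 1.23, 1.10 and 1.23 against 1.01, 1.09 and 1.42 FPKM.

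Of 4 abundant members in the Dnmt3a line, Cdk4, Pcna and E2f1 had narrower 95% intervals than Ccnd2. Pcna measured 23.7, 25.9 and 25.3 FPKM in control and 27.1, 27.6 and 25.5 FPKM in CKO, and Cdk4 21.9, 20.4 and 21.9 against 20.3, 22.5 and 20.9 FPKM. Ccnd2 measured 15.7, 12.1 and 14.3 FPKM in control and 15.8, 13.3 and 13.7 FPKM in CKO, and E2f1 4.13, 4.59 and 4.41 against 4.45, 4.34 and 4.17 FPKM. For each of these 4 genes the groups overlapped. In the Dnmt3a line the log2 fold changes were −0.01 for Cdk4 (95% interval −0.14 to 0.11), 0.10 for Pcna (95% interval −0.02 to 0.21), −0.02 for E2f1 (95% interval −0.17 to 0.14) and 0.03 for Ccnd2 (95% interval −0.25 to 0.31).

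**Figure D4:**
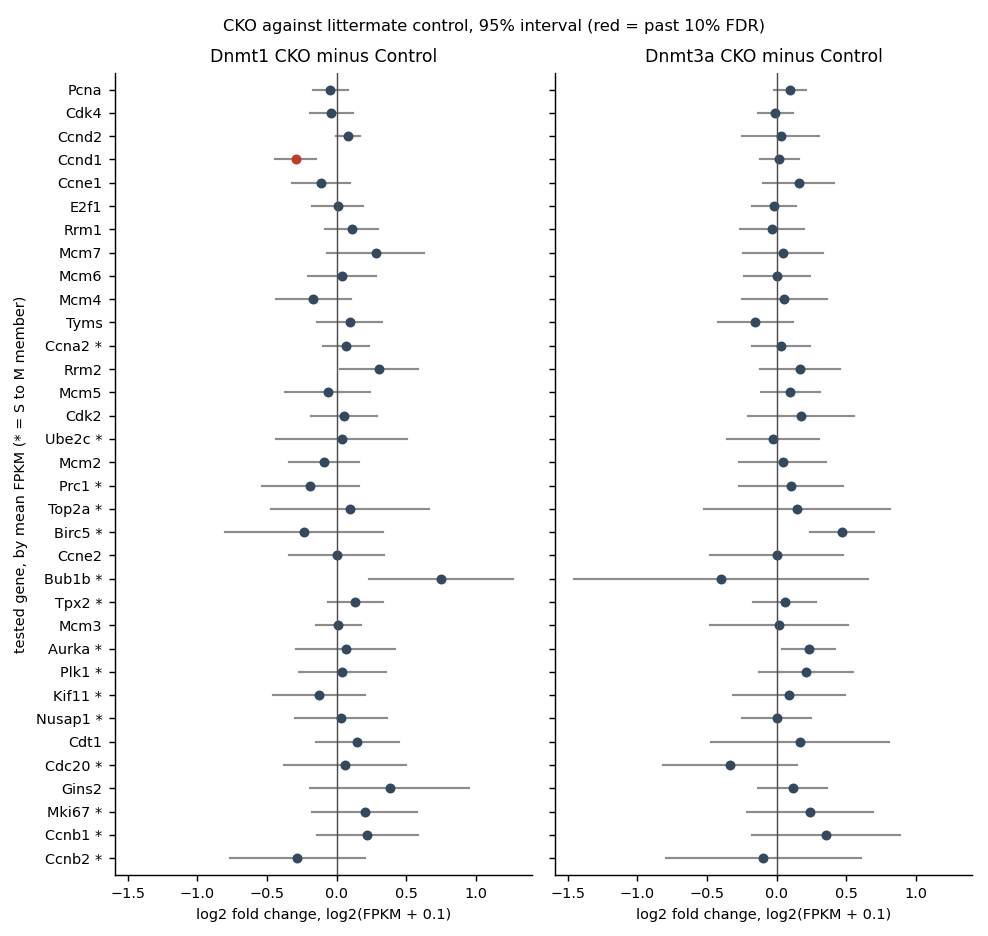
Log2 fold change of CKO against littermate control on the log2(FPKM + 0.1) scale for the 34 tested members, ordered by mean FPKM, in the Dnmt1 line (left) and the Dnmt3a line (right), with 95% intervals from limma. Ccnd1 in the Dnmt1 line, in red at −0.29, is the only point past 10% FDR, and intervals widen toward the low genes at the foot.

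The third comparison tested whether the change differed between the lines, by the interaction over all 12 libraries. No member was called, against 2.12% of all genes, of which 1.83% were lower, and 3 of 34 (8.82%) had an unadjusted p under 0.05, against 10.6%. For Ccnd1 the Dnmt1 change less the Dnmt3a change was −0.31 (SE 0.0835, 95% interval −0.50 to −0.13, adjusted p = 0.13). It was thus not shown past the threshold that Ccnd1 fell more in the Dnmt1 line. For Bub1b the difference was 1.15 (95% interval 0.02 to 2.28, adjusted p = 0.46) and for Birc5 −0.70 (95% interval −1.32 to −0.09, adjusted p = 0.39).

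How small a change these samples could show differed along the order of levels. The 95% interval of the log2 fold change lay within ±0.5 for 23 of the 34 members in each line and within ±1 for 33, the exception being Bub1b in both. The median distance from the estimate to the end of its interval was 0.30 in the Dnmt1 line and 0.29 in the Dnmt3a line for the members, against 0.17 and 0.18 over all genes tested. For some members reads may also be shared with copies or neighbours: 23.4% of the 50-base words of Ccnb1 transcripts, 23.3% of those of Mcm7 and 19.1% of those of Pcna occur in another annotated gene, and exons of Cdk4 (19.7%) and Ube2c (22.8%) overlap a gene on the other strand.

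The 7 members under the minimum of 0.5 FPKM were not tested in the comparisons above. They are Cdk1, the mitotic kinase, Aurkb, Bub1, the kinetochore genes Cenpe and Cenpf, the kinesin Kif20a, and Cdc6, with means from 0.117 to 0.360 FPKM. Cdk1 measured 0.356, 0.337 and 0.258 FPKM in Dnmt1 Control and 0.386, 0.455 and 0.186 FPKM in Dnmt1 CKO, and 0.378, 0.205 and 0.294 FPKM in Dnmt3a Control and 0.219, 0.416 and 0.383 FPKM in Dnmt3a CKO. Cdc6 measured 0.168, 0.139 and 0.122 FPKM in Dnmt1 Control and 0.0978, 0.0975 and 0.0952 FPKM in Dnmt1 CKO, with no overlap. In a fit without the minimum its log2 fold change was −0.30 with an adjusted p of 0.23. The 0.1 FPKM added before taking logs is close to the level of Cdc6 and makes that change smaller. Cenpe lay higher and Cenpf lower in Dnmt1 CKO without overlap, at 0.369 ± 0.0076 against 0.312 ± 0.0316 FPKM and 0.241 ± 0.0276 against 0.286 ± 0.0213 FPKM (SD, n = 3). Cdk1, Aurkb, Bub1 and Kif20a overlapped between CKO and control in both lines. Of the genes tested in the Dnmt1 line, all with means of at least 0.5 FPKM, 20.8% did not overlap. In the fit without the minimum none of the 41 was called.

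Within groups, the members varied together from mouse to mouse more than the genes with means of 0.5 to 2 FPKM as a whole. The members were not matched to those genes by level and had means from 0.117 to 25.8 FPKM. The deviations of each library from its group mean had a median pairwise Pearson r of 0.37 over the 21 S to M members, 0.22 over the 20 G1 and S members and 0.18 between the sets, against 0.0135 over 2648 genes with means of 0.5 to 2 FPKM, each over the same 12 libraries. Without the library labelled Dnmt3a Control replicate 2 these values were 0.23, 0.26, 0.21 and 0.015, so that the higher value of the S to M set rests on it. The closest to Mki67 were Ccnb1 (r = 0.95), Top2a (r = 0.93), Cenpf (r = 0.82), Kif20a (r = 0.81) and Prc1 (r = 0.80). Bub1b, with r = −0.03, did not follow Mki67, and Cdt1, the licensing factor that is degraded once S phase begins, ran opposite with r = −0.62. Without the library labelled Dnmt3a Control replicate 2, r with Mki67 was 0.88 for Ccnb1, 0.87 for Top2a, 0.55 for Cenpf, 0.80 for Kif20a, 0.61 for Prc1, 0.07 for Bub1b and −0.31 for Cdt1. The points share library and depth, so these correlations are descriptions.

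The library labelled Dnmt3a Control replicate 2 was below its group mean for 20 of the 21 S to M members and for 13 of the 20 G1 and S members. It was the lowest of all 12 libraries for 8 of the 21. Its median deviation from the mean of the 12 libraries was −0.24 on the log2 scale for S to M members and −0.03 for G1 and S members. The summed S to M level was 15.5, 11.6 and 14.2 FPKM in Dnmt3a Control and 13.9, 15.02 and 14.4 FPKM in Dnmt3a CKO. A sum of 12 markers of neuroblasts and neural progenitors, among them Dcx, Dlx1, Sox11 and Cd24a, was lowest in the same library, at 35.3 FPKM. It was 45.8 and 42.5 FPKM in the other Dnmt3a controls and 37.1 to 41.3 FPKM in CKO. In the Dnmt1 line that sum was 39.5 to 47.4 FPKM in control and 42.2 to 47.1 FPKM in CKO. Cd24a was at 8.97 FPKM in the library labelled Dnmt3a Control replicate 2, beside 13.7 and 13.2 FPKM in the other Dnmt3a controls. Not every marker was lowest there: Dcx, at 8.24 FPKM, lay above the Dnmt3a CKO values of 7.89 to 8.08 FPKM. The sum of the 10 oligodendrocyte progenitor markers in that library was 127 FPKM. It was 135 and 132 FPKM in the other Dnmt3a controls and 129 to 141 FPKM in Dnmt3a CKO. The myelin sum in that library was 2959 FPKM, beside 2654 and 2478 FPKM in the other Dnmt3a controls and 2706 to 3086 FPKM in CKO. The part of any of these cells in the mitotic genes' level was not tested.

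**Figure D5:**
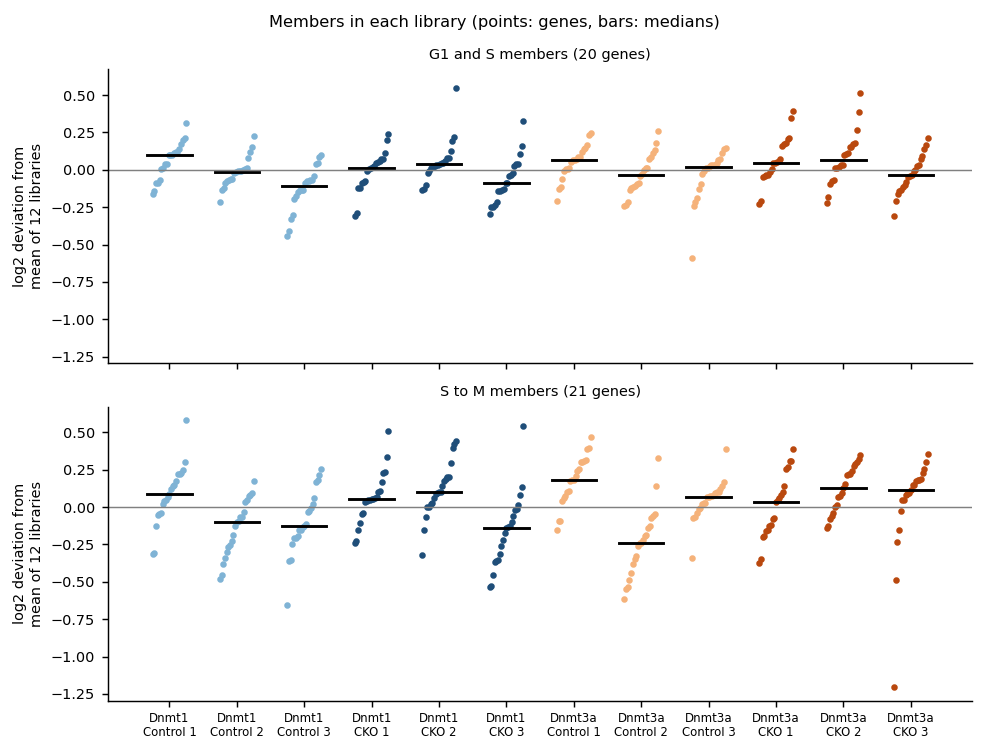
Log2 deviation of each member from its mean over the 12 libraries, for the 20 G1 and S members (top) and the 21 S to M members (bottom), with 1 point per gene and a bar at the median of each library. The S to M bar of Dnmt3a Control 2 is the lowest, at −0.24, and the medians of CKO and control libraries overlap in both lines.

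Beyond the 41 genes, 143 others of the cycle were read from lists of CDK inhibitors, the Rb, E2F and DREAM proteins, other cyclins and kinases, origin and fork proteins, mitotic proteins and the APC/C. Of the 109 tested, 11 had an unadjusted p under 0.05 in the Dnmt1 line (10.1%, against 15% of all genes). In the Dnmt3a line 8 did (7.34%, against 7.35%). At 10% FDR, 1 was called in the Dnmt1 line (0.917%, against 3.15% of all genes) and none in the Dnmt3a line. In the difference between the lines 1 was called (0.917%, against 2.12%). Both calls are Anapc13, a small subunit of the APC/C, which measured 31.0, 31.7 and 30.6 FPKM in Dnmt1 Control and 27.9, 28.7 and 27.2 FPKM in Dnmt1 CKO. Its log2 fold change was −0.15 (95% interval −0.23 to −0.08, adjusted p = 0.084). In the Dnmt3a line it measured 28.0, 28.7 and 31.6 FPKM in control and 30.9, 32.0 and 33.9 FPKM in CKO, a log2 fold change of 0.13 (adjusted p = 0.66). The call held in 7 of 19 alternatives. The median log2 fold changes of the 109 genes were −0.01 in the Dnmt1 line and 0.01 in the Dnmt3a line.

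None of the CDK inhibitors, which hold cells in G1, was called by limma. An unadjusted p under 0.05 was reached by 2 of 6 in the Dnmt1 line (33.3%, against 15% of all genes). In the Dnmt3a line 1 of 6 reached it (16.7%, against 7.35%). Cdkn1a, encoding p21, measured 8.62, 9.69 and 6.91 FPKM in Dnmt1 Control and 10.6, 11.4 and 10.9 FPKM in Dnmt1 CKO, and 6.25, 8.39 and 7.95 FPKM in Dnmt3a Control and 9.31, 8.99 and 8.52 FPKM in Dnmt3a CKO. The CKO values lay above the control values in each line, with log2 fold changes of 0.39 (adjusted p = 0.23) and 0.26 (adjusted p = 0.66). Cdkn1b, encoding p27, which acts when oligodendrocyte progenitors leave the cycle, measured 12.5, 12.2 and 12.6 FPKM in Dnmt3a Control and 14.0, 13.9 and 13.7 FPKM in Dnmt3a CKO. Its log2 fold change there was 0.16 (95% interval 0.08 to 0.23, adjusted p = 0.66), beside −0.01 (95% interval −0.09 to 0.08) in the Dnmt1 line. Cdkn1c, encoding p57, was at 2.96 ± 0.140 FPKM in Dnmt1 Control and 2.48 ± 0.113 in Dnmt1 CKO (SD, n = 3), a difference of −0.25 on the log2 scale (adjusted p = 0.19). Cdkn2d, the most abundant at 24.3 to 26.1 FPKM, had log2 fold changes of −0.02 and 0.01, Cdkn2c of −0.03 and 0.26 and Cdkn2b of 0.20 and −0.22 in the Dnmt1 and Dnmt3a lines. Cdkn2a, from which p16 and p19ARF are made, was at 0.196 FPKM or less in every library and was not tested.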

How the data were processed

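Per the labels and the study's methods, RNA from 12 cortices was prepared with a TruSeq kit, reads were aligned to mm10 with TopHat, and the authors deposited FPKM values per gene symbol made with Cufflinks. Versions and any further scaling between libraries are not given in the sources used here, and strand is not stated. The deposited FPKM values are not counts, and the reads behind a value were not estimated, so no counting interval is given.

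Of 23850 rows, 302 exact duplicates were removed, and 0 value columns were left without a sample. Rows whose mean over the libraries reached 0.5 FPKM were tested on log2(FPKM + 0.1) with limma 3.58.1 in R 4.3.3 (eBayes with a trend, Benjamini-Hochberg adjustment over all rows tested, 10% FDR), for each CKO group against its littermates and for the interaction over 12 libraries. Where nothing else is said, a p is limma's. With 3 against 3, an exact permutation test cannot go below p = 0.1, so single genes were described by overlap of the groups. The procedure was tested on simulated data. The alternatives were other pseudocounts, minimums, scalings and eBayes settings, 1 model of 12 libraries, summed rows, the replicate number as a block, 5% FDR and each library left out.

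The 41 genes, the gene and marker lists and the tests were chosen with earlier results of these data known. Values in every library are given for members past 10% FDR, the 5 largest log2 fold changes in each line, the most abundant member of each role, Mki67 and Top2a. Called genes and CDK inhibitors of the other lists are named. Other members were picked with their values in view. Positions and exon overlaps come from GENCODE M21 on GRCm38, the assembly also called mm10, and promoter sequences from RefSeq on GRCm38.p6, and 9 members without a promoter entry were not searched. Python 3.11.15, pandas 2.3.3, numpy 2.4.6 and matplotlib 3.10.9 were used.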

Additional observations from a re-analysis of the deposited data

Results flagged for a closer look

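The values below were picked out because the estimated change in CKO differed between the Dnmt1 and the Dnmt3a line. Gins3, a subunit of the GINS complex beside Gins2, measured 0.652, 0.449 and 0.536 FPKM in Dnmt1 Control and 0.400, 0.409 and 0.369 FPKM in Dnmt1 CKO, and 0.522, 0.448 and 0.498 FPKM in Dnmt3a Control and 0.671, 0.586 and 0.580 FPKM in Dnmt3a CKO. All CKO libraries lay below the controls in the first line and above them in the second, which is why Gins3 was picked. Its values lie near the minimum of 0.5 FPKM. The difference between the lines was −0.65 on the log2 scale (95% interval −1.19 to −0.12), and in the interaction test by limma its adjusted p of 0.34 did not pass 10% FDR.

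For Anapc13 the difference between the lines was −0.29 on the log2 scale (95% interval −0.44 to −0.13, adjusted p = 0.092), and this call held in 10 of 25 alternatives. Olig1, the locus that carries cre, measured 46.5 ± 4.46 FPKM in Dnmt1 Control and 20.3 ± 1.81 in Dnmt1 CKO, and 47.4 ± 2.98 FPKM in Dnmt3a Control and 33.9 ± 4.33 in Dnmt3a CKO (SD, n = 3). It was lower in 3 of 3 CKO libraries of each line, and the difference between the lines was −0.70 on the log2 scale (adjusted p = 0.032).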

How the results depend on the processing

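The call of Ccnd1 in the Dnmt1 line held in 9 of 19 alternatives, with adjusted p from 0.0213 to 0.31. The count of members called there was 1 and became 0 with no filter on low values (adjusted p of Ccnd1 0.156), with eBayes without a trend (0.102) and at 5% FDR, and was 0 to 0 when each library was left out in turn. The count called in the difference between the lines was 0 to 1 with each library left out: Ccnd1 passed without Dnmt1 CKO replicate 2 (adjusted p = 0.099) and without Dnmt3a Control replicate 3 (adjusted p = 0.0957). No alternative gave a call in the Dnmt3a line. The median log2 fold changes of the members ran from −0.02 to 0.08 in the Dnmt1 line and from −0.01 to 0.10 in the Dnmt3a line. They moved by less than the SD of the library medians, 0.0866. That SD is larger than the medians of 0.04 and 0.05 themselves, so a change of sign falls within it. Over all genes the Dnmt3a line held 2 called rows, 20 with no filter, 1 to 3 under the other settings and 2 to 5 with each library left out, and the Dnmt1 line 444 rows, or 199 to 341 with each library left out. The cause of these shifts was not tested.

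Replicate numbers are shared between groups, but same-numbered libraries of a line did not deviate together over all genes (r from −0.0609 to 0.0352 in the Dnmt1 line and −0.0792 to 0.0182 in the Dnmt3a line), so the numbers were not used for pairing. With the replicate block, members called in the Dnmt1 line were 0 (Ccnd1 adjusted p = 0.31), and calls over all rows went from 444 to 162 in the Dnmt1 line, from 2 to 1 in the Dnmt3a line and from 300 to 232 in the difference.

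Some log2 fold changes, mostly near 0 but also that of Bub1b in the Dnmt3a line, changed sign when single libraries were left out. In the Dnmt1 line the ranges were −0.11 to 0.20 for Cdc20, −0.025 to 0.31 for Top2a, −0.057 to 0.066 for E2f1, −0.17 to 0.18 for Ube2c and −0.10 to 0.0041 for Cdk4. In the Dnmt3a line they were −0.016 to 0.066 for Ccnd1, −0.052 to 0.022 for Cdk4, −0.065 to 0.12 for Mcm7, −0.12 to 0.35 for Top2a, −0.073 to 0.11 for Ccnd2, −0.050 to 0.25 for Prc1, −0.057 to 0.017 for E2f1, −0.16 to 0.065 for Ube2c and −0.66 to 0.11 for Bub1b. In the difference between the lines they were −0.089 to 0.015 for Cdk4, −0.17 to 0.17 for Mki67, −0.25 to 0.22 for Top2a, −0.039 to 0.084 for E2f1, −0.15 to 0.21 for Ube2c, −0.033 to 0.15 for Ccnd2 and −0.28 to 0.12 for Ccnb1. The Cdk4 difference was also 0.0056 with median ratio rescaling and 0.0090 with quantile normalization. Values under 1 FPKM, as for most S to M members, limit what these libraries can show.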

Other observations

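Other cell cycle lists were read by their counts. In the Dnmt1 line, 13 tested genes of the Rb, E2F and DREAM list had a median log2 fold change of −0.04, with 4 higher and 9 lower, 36 origin and fork genes of 0.03, with 22 higher and 14 lower, 25 further mitotic genes of 0.03, 15 other cyclins and kinases of −0.04, 14 APC/C subunits of −0.03 and 6 CDK inhibitors of −0.01. In the Dnmt3a line the medians were 0.02, 0.00, 0.09, −0.03, −0.02 and 0.16 in the same order. Cdc45, chosen after its values were seen, is the helicase partner of MCM2 to MCM7 and GINS. It measured 0.755, 0.597 and 0.620 FPKM in Dnmt1 Control and 0.928, 0.899 and 0.939 FPKM in Dnmt1 CKO, with a log2 fold change of 0.44 (95% interval 0.21 to 0.67) and an adjusted p of 0.11 by limma, which missed the threshold.

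Markers of other dividing or resident cells gave 2 further calls in the Dnmt1 line, also named after their values were seen. Gfap, the intermediate filament of astrocytes, was higher by 0.45 on the log2 scale (adjusted p = 0.0065), and C1qa, a complement gene of microglia, by 0.34 (adjusted p = 0.013). Each is 1 of 8 (12.5%) in its list, against 3.15% of all genes. Other markers went down: 4 of 8 astrocyte markers were lower, with Aqp4 at −0.28 (adjusted p = 0.14). Of the 8 microglia markers 3 were lower, with Itgam at −0.18 (adjusted p = 0.34). The medians of the lists in that line were −0.02 for astrocytes, 0.04 for microglia, 0.02 for neurons, −0.18 for endothelium, 0.07 for neuroblasts and progenitors, −0.04 for choroid plexus and −0.74 for blood, and no other marker of these lists was called there. An unadjusted limma p under 0.05 was reached there by 3 of 4 blood markers (75%) and 3 of 8 astrocyte markers (37.5%), against 15% of all genes. For neuroblasts and progenitors it was 2 of 10 (20%), for microglia 1 of 8 (12.5%), and for neurons and choroid plexus none. In the Dnmt3a line no marker was called by limma in any list. An unadjusted p under 0.05 was reached by 2 of 8 astrocyte markers (25%) and 1 of 8 neuron markers (12.5%), against 7.35% of all genes. The medians were 0.11, 0.11, 0.07, 0.04, −0.02, 0.61 and 0.63, in the order of the medians given for the Dnmt1 line.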
